A study of Homo sapiens with 9 samples.

Results

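The genes described here are the 42 listed components of the autophagy machinery, taken by symbol from a count table of 58347 Ensembl genes. They are the ULK1 initiation complex (5 genes), the class III PI3-kinase complex (6), the proteins of lipid transfer and phagophore growth (9), the conjugation enzymes (11), the ATG8 family (5), the cargo receptors (5) and the fusion SNARE STX17. All 42 were found in the table. Of these, 40 held enough counts to be tested and 2 did not: ULK2, with 7 counts over all 9 libraries, and MAP1LC3A, with 30.

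RNA was sequenced from K562-FIRE cells, a derivative of the human erythroleukaemia line K562. Every library's cells carry the same 3 introduced parts under EF1a promoters: dCas9, a Cas9 without cutting activity that a guide RNA directs to its site, MS2-Fkbp, and SS18-Frb, a fusion of a subunit of the BAF chromatin remodelling complex. Because rapamycin bridges Fkbp and Frb, it recruits the fusion to the guide's site, and the study asked whether BAF brought to the HBG1 promoter activates HBG1. The groups were cells with a guide (sgRNA) to the HBG1 promoter under DMSO (n = 3) or 10 nM rapamycin (n = 3), and cells with a non-targeting sgRNA under DMSO (n = 1) or 10 nM rapamycin (n = 2), all for 24 h. The labels do not say whether the line is 1 clone or whether replicates are separate cultures, so p-values measure the spread between these libraries, which may be technical.

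Autophagy encloses cytoplasm in a double membrane that fuses with the lysosome. The kinase ULK1, with ATG13, RB1CC1 and ATG101, starts the process, and a PI3-kinase complex around PIK3C3 and BECN1 then marks the growing membrane with a lipid read by the WIPI proteins. Ubiquitin-like enzymes attach the ATG8 proteins to that membrane, where cargo receptors bind them. The kinase complex mTORC1, which rapamycin inhibits, restrains ULK1 and ATG13 by phosphorylation and holds the transcription factor TFEB in the cytoplasm. RNA levels alone were measured here, not protein, lipid conjugation or autophagic flux.

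The libraries held 19797409 to 31619671 counts. Levels are CPM, counts scaled to library size with TMM factors, and a gene is called at an adjusted p under 0.05 in edgeR's quasi-likelihood test, adjusted over all 23675 tested genes. The defining erythroid genes were present in every library, and their summed level, most of it globin, was 11000 to 17200 CPM under DMSO and 16200 to 23700 CPM under rapamycin with the HBG1 sgRNA. Among them the factors GATA1 (log2 fold change 0.31, adjusted p 0.0326) and NFE2 (0.39, adjusted p 0.0144) rose with rapamycin, the transferrin receptor TFRC fell (-0.28, adjusted p 0.0183), and their part in the results below was not tested. Of the markers of other cells, 3 of 5 lymphoid, 3 of 5 granulocyte and monocyte and 2 of 4 megakaryocyte genes stayed under 1 CPM in all libraries. The same was so for 0 of the 5 epithelial and fibroblast genes. With the HBG1 sgRNA the summed granulocyte and monocyte level, nearly all LYZ, was 19.2 to 20.8 CPM under DMSO and 21.4 to 30 CPM with rapamycin. The megakaryocyte sum, mostly ITGA2B, was 36.5 to 45.9 and 43.3 to 65.4 CPM, and the lymphoid sum 7.74 to 8.12 and 7.02 to 8.31 CPM. The summed level of the 5 epithelial and fibroblast markers, mostly KRT8 and KRT18, was 535 to 742 CPM under DMSO and 693 to 800 CPM under rapamycin with the HBG1 sgRNA, and its part was likewise not tested. HBG1 itself stood at 137 to 436 CPM under DMSO with its guide, at 1530 to 2450 CPM once rapamycin was added, and at 8230 to 8940 CPM in the non-targeting libraries. In bulk RNA, fewer cells that express a gene and less RNA per cell cannot be told apart.

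Rapamycin raised 10 of the 40 tested autophagy genes over DMSO with the HBG1 sgRNA and lowered none past the threshold, where 6.8% of all tested genes were called in either direction. The 10 were ULK1, ATG13 and RB1CC1 of the initiation complex, the lipid-binding proteins WIPI2 and WDR45, the ATG16 relative ATG16L2, the ATG8 proteins GABARAP and GABARAPL1, and the cargo receptors NBR1 and TAX1BP1. Rises ran from 1.28-fold for TAX1BP1 to 1.79-fold for WDR45. The share called higher was 25.0%, against 2.75% of all tested genes, and the share called lower was 0 of 40, against 4.05%. Among genes with a mean of at least 10 CPM, where small changes are easier to detect, 10 of 38 autophagy genes were called higher (26.3%), against 4.36% of all genes at that level, and 0 of 38 lower, against 8.51%. The list was chosen with earlier results of these data known, so these shares describe it and do not test it.

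The median log2 fold change over the 40 genes was 0.10, against 0.02 over all tested genes, a measure in which rises and falls offset each other. In edgeR's quasi-likelihood test, 21 of the 40 had an unadjusted p under 0.05, against 20.8% of all tested genes. By sign, 24 of the 40 were above 0, 15 below and 1 at 0.00. All 3 rapamycin libraries lay above all 3 DMSO libraries for 17 of the 40 (42.5%), against 12.2% of tested genes. They lay below for 5 of the 40 (12.5%), against 13.1%.

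With the HBG1 sgRNA, libraries of the 2 treatments were paired by replicate number, a pairing that is not settled for replicates 2 and 3. A fit with the replicate as a block on these 6 libraries called 15 autophagy genes higher (37.5%) and 2 lower (5.0%). In that fit 7.43% of all tested genes were called higher and 9.62% lower. It called the same 10 genes, and added PIK3C3, ATG9A, ZFYVE1, GABARAPL2 and OPTN as higher and PIK3R4 and ATG3 as lower. Upper-quartile scaling changed none of the 10 calls, but across all genes it moved the share of calls that were higher from 40.4% to 54.9%.

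**Figure D1:**
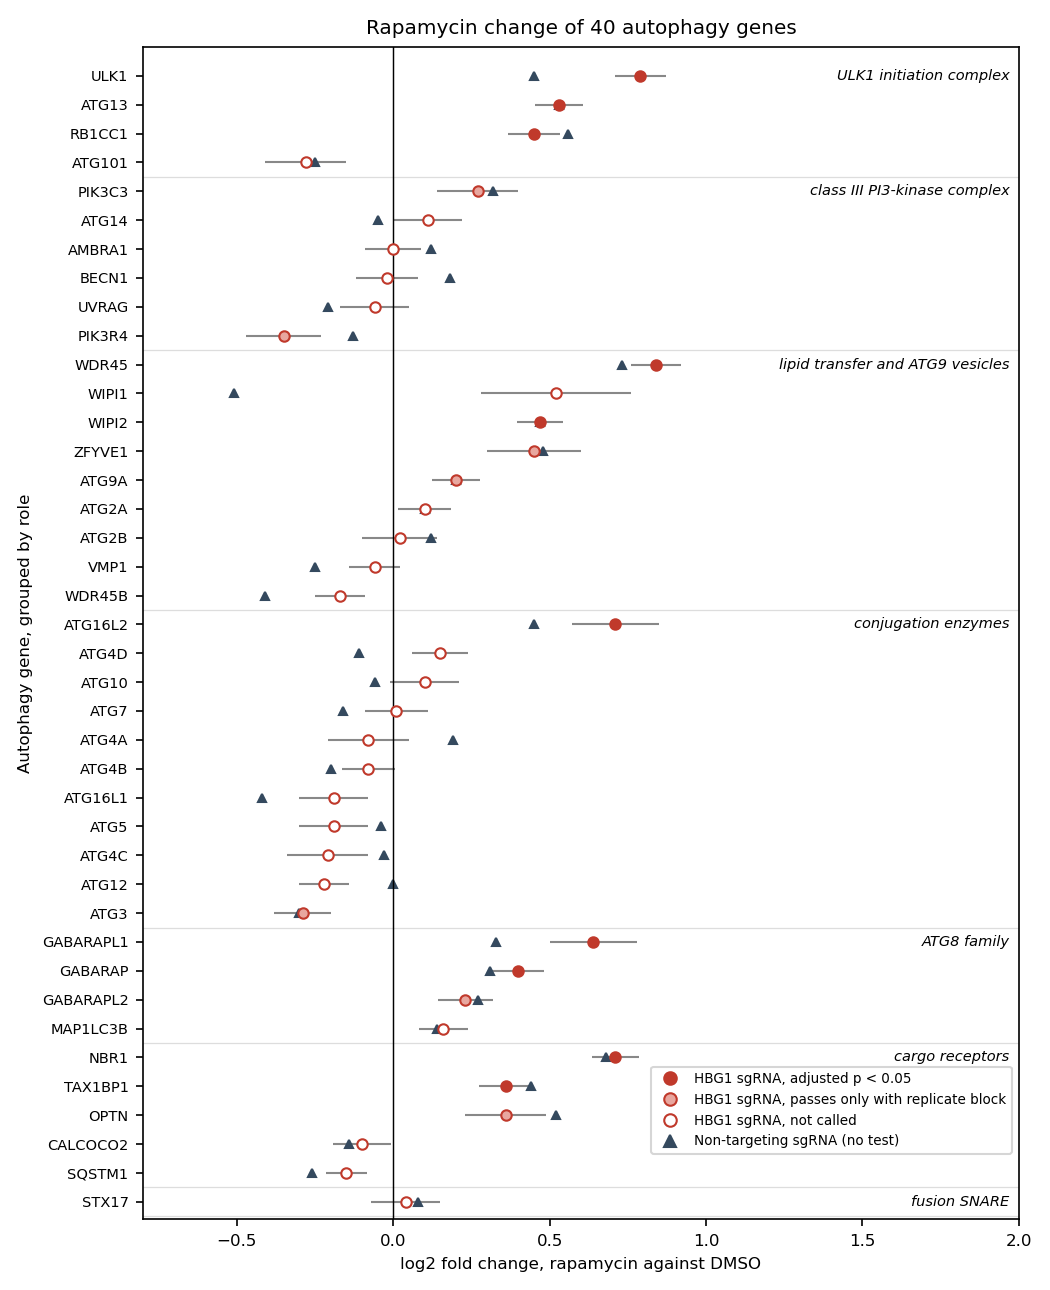
Log2 fold change of rapamycin against DMSO (horizontal axis) for the 40 tested autophagy genes (vertical axis, grouped by role). Circles with SE bars are the HBG1 sgRNA (filled at an adjusted p under 0.05, pale where only the block passes, open otherwise). Triangles are the non-targeting sgRNA, shown as fold changes only. The 10 filled circles all lie right of 0, from 0.36 to 0.84, while 7 of the 11 conjugation enzymes lie left of 0.

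The initiation complex had 3 of its 4 tested members called, all higher (75.0%, against 2.75% of all tested genes). ULK1, the kinase itself (ENSG00000177169, chromosome 12, 131894651 to 131923167, GRCh38, GENCODE 29), stood at 46.1, 41.5 and 44.2 CPM in DMSO replicates 1 to 3 and at 73.3, 80.8 and 73.5 CPM under rapamycin. The groups did not overlap, and the log2 fold change was 0.79 (SE 0.08 and adjusted p 7.23e-05). With the non-targeting sgRNA it was 57.9 CPM in the DMSO library and 77.8 and 80.3 CPM under rapamycin, so the non-targeting DMSO library was higher than any HBG1 sgRNA DMSO library.

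ATG13, the regulatory subunit that links ULK1 to the complex (ENSG00000175224, chromosome 11, 46617527 to 46674818), was at 59.9, 60.4 and 60.4 CPM under DMSO and at 81.4, 87.0 and 92.8 CPM under rapamycin. Its DMSO libraries, with an SD of 0.257 CPM, lay closer together than its rapamycin libraries, with an SD of 5.69 CPM, and the log2 fold change was 0.53 (SE 0.08 and adjusted p 0.000701). RB1CC1, the scaffold also called FIP200 (ENSG00000023287), was at 85.8, 84.4 and 81.6 CPM under DMSO and at 117, 105 and 123 CPM under rapamycin, a log2 fold change of 0.45 (SE 0.08 and adjusted p 0.00423). Both genes were also higher in each non-targeting rapamycin library, at 92.4 and 91.6 CPM against 63.6 CPM for ATG13 and at 128 and 110 CPM against 80.6 CPM for RB1CC1.

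ATG101, which stabilises ATG13, was not called. It was at 26.8, 22.2 and 18.7 CPM under DMSO and 17.1, 18.9 and 19.9 CPM under rapamycin, so the groups overlapped (log2 fold change -0.28, SE 0.13, adjusted p 0.238). ATG101 shares 19.2% of its exonic length with the antisense gene AC025259.1. That gene went from 13.5 ± 3.04 to 11.9 ± 0.478 CPM (SD, n = 3 each, adjusted p 0.552), and the part of shared reads was not tested. ULK2, the second kinase of the family, was at 0 to 5 counts per library, too few to say whether it differed.

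The class III PI3-kinase complex had no member called of 6, where 6.8% of all tested genes were, so a count of 0 is near that share. BECN1, its regulatory core, had a log2 fold change of -0.02 (95% interval -0.23 to 0.20), and AMBRA1, which binds BECN1, of 0.00 (95% interval -0.19 to 0.19). BECN1 shares 12.4% of its exonic length with CNTD1 and 4.7% with PSME3, both on the other strand. CNTD1 had a log2 fold change of 0.00, and PSME3 was called lower, from 229 ± 7.25 to 171 ± 1.41 CPM (SD, n = 3 each, adjusted p 0.00142). The part of shared reads in the value of BECN1 was not tested. ATG14, which directs the complex to autophagy, and UVRAG, its counterpart in endosomal traffic, had 0.11 and -0.06. The catalytic and regulatory kinase subunits had opposite signs. PIK3C3 was at 38.9, 29.4 and 28.7 CPM under DMSO and 46.0, 36.8 and 34.6 CPM under rapamycin, overlapping between groups but higher in each of the 3 pairs. Its log2 fold change was 0.27 (adjusted p 0.246, and 0.0198 with the block). PIK3R4 was at 33.7, 33.3 and 38.4 CPM under DMSO and 22.6, 29.6 and 30.5 CPM under rapamycin, lower in each pair and without overlap, with a log2 fold change of -0.35 (adjusted p 0.0954, and 0.0126 with the block).

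Among the 9 proteins of lipid transfer and phagophore growth, WDR45 and WIPI2 rose (22.2%, against 2.75% of all tested genes). WDR45, also called WIPI4, which binds the lipid transfer protein ATG2 (ENSG00000196998, chromosome X, 49071470 to 49101170), had the largest fold change of the 40 genes. It was at 52.8, 51.0 and 51.7 CPM under DMSO and at 94.2, 92.5 and 92.2 CPM under rapamycin, with a log2 fold change of 0.84 (SE 0.08 and adjusted p 5.47e-05). The SD within each group was 0.916 CPM under DMSO and 1.07 CPM under rapamycin, far less than the 41.1 CPM between the group means. With the non-targeting sgRNA it was at 54.0 CPM under DMSO and 81.9 and 97.8 CPM under rapamycin.

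WDR45 shares 757 exonic bases (13.9% of its exonic length) with PRAF2, which lies on the same strand. PRAF2 was also called higher, with a log2 fold change of 1.16 (adjusted p 0.000496), its mean going from 4.97 to 11.1 CPM. How reads over the shared bases were assigned was not tested. WIPI2, which recruits the ATG16L1 complex to the membrane (ENSG00000157954, chromosome 7, 5190188 to 5233826), was at 80.1, 82.2 and 83.6 CPM under DMSO and 109, 122 and 110 CPM under rapamycin. Its log2 fold change was 0.47 (SE 0.07 and adjusted p 0.00142), and the non-targeting libraries moved alike, from 85.8 CPM to 118 and 120 CPM.

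The close relatives of these 2 proteins did not rise with them past the threshold. WDR45B was at 57.2, 58.6 and 58.4 CPM under DMSO and 53.4, 53.4 and 47.6 CPM under rapamycin, lower without overlap, with a log2 fold change of -0.17 (SE 0.08 and adjusted p 0.233). WIPI1 was the lowest of the 9 in CPM, at 4.50, 4.78 and 4.77 under DMSO and 8.62, 6.51 and 5.13 under rapamycin, with a log2 fold change of 0.52 (SE 0.24 and adjusted p 0.229). In the non-targeting libraries it went the other way, from 6.36 CPM under DMSO to 3.12 and 5.87 CPM. WIPI1 shares 24.3% of its exonic length with ARSG on the other strand, whose mean level went from 3.00 ± 0.299 to 5.12 ± 1.01 CPM (SD, n = 3 each), so reads of the 2 genes may not be separable.

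ZFYVE1, a marker of the membrane site where phagophores form, was at 7.58, 8.06 and 7.13 CPM under DMSO and 11.1, 10.3 and 9.84 CPM under rapamycin. These groups did not overlap, with a log2 fold change of 0.45 (adjusted p 0.0779, and 0.036 with the block). ATG9A, the membrane protein of the vesicles that seed phagophores, was at 120, 103 and 109 CPM under DMSO and 132, 124 and 125 CPM under rapamycin, a log2 fold change of 0.20 (adjusted p 0.14, and 0.0221 with the block). A further annotated gene, AC068946.2, covers 38.8% of the exonic length of ATG9A on the same strand and is not used here. ATG2A, ATG2B and VMP1, which move lipids into the membrane, had log2 fold changes of 0.10, 0.02 and -0.06.

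**Figure D2:**
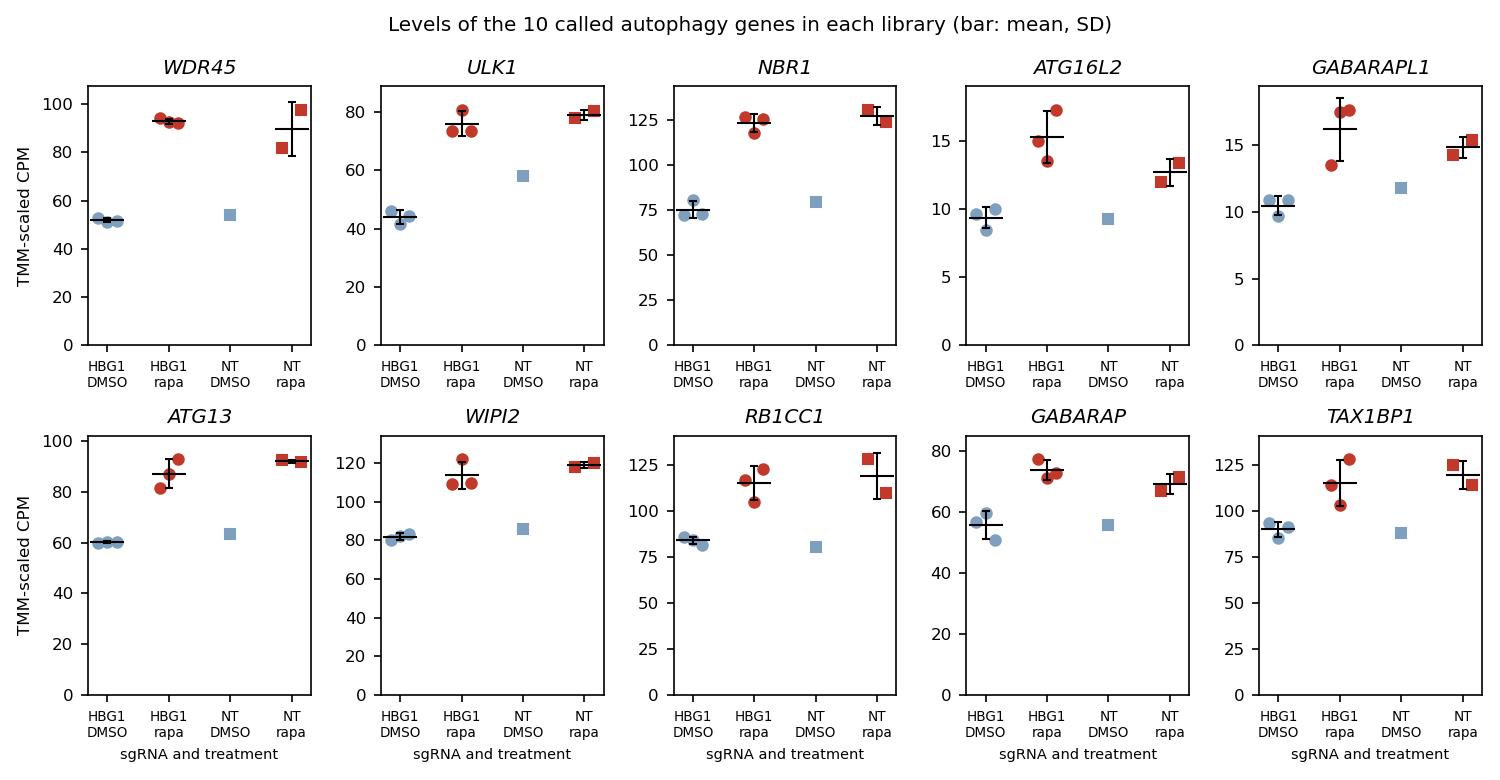
TMM-scaled CPM (vertical axes, from 0) of the 10 called autophagy genes in each of the 9 libraries, by sgRNA and treatment, where bars give the mean and SD of groups with more than 1 library. For each gene, every rapamycin library lies above every DMSO library with the same guide.

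The promoter windows of WDR45, GABARAPL1 and ATG3 are shown because they are the windows of called or block-called genes that hold any of 5 sought motifs, here in capitals. The sequences are from RefSeq (GRCh38.p14), 100 bases before the start to 12 after it, read 5′ to 3′ on the gene's strand. They are chrX:49079876-49079987 (minus strand), chr12:10212777-10212888 (plus strand) and chr3:112561951-112562062 (minus strand).
WDR45: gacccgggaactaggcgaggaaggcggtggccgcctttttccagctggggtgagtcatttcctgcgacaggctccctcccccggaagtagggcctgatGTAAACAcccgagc
GABARAPL1: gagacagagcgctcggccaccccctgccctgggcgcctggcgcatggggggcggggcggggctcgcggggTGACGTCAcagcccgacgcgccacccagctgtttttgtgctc
ATG3: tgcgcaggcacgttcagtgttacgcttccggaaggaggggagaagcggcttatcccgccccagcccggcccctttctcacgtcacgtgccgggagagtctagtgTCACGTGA

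The capitals mark GTAAACA, a FOXO element, in WDR45, TGACGTCA, a CREB element, in GABARAPL1, and TCACGTGA, the core of the element bound by the TFEB family, in ATG3. Windows of 300 bases, 250 before the start and 50 after, were searched on both strands for these letters, for the longer CLEAR element of the TFEB family, which contains TCACGTGA, and for TGATGCAA, an ATF4 element. RefSeq held 46 such windows for 36 of the 42 genes, and 9 of the 10 called genes were among them. GTAAACA was in 2 of the 46 windows (WDR45 and CALCOCO2), against 3.42% of all 35116 windows. TGACGTCA was in 1 of the 46, against 1.85% of all, and TCACGTGA in 1 of the 46, against 0.98% of all. The CLEAR element and TGATGCAA were in 0 of the 46, against 0.353% and 0.866% of all. These are matches of letters in short windows and show no binding.

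The conjugation enzymes were the largest group, and 1 of the 11 was called, higher (9.09%, against 2.75% of all tested genes). ATG16L2, a relative of ATG16L1 (ENSG00000168010, chromosome 11, 72814308 to 72843674), was at 9.62, 8.48 and 10.0 CPM under DMSO and 15, 13.5 and 17.3 CPM under rapamycin. Its log2 fold change was 0.71 (SE 0.14 and adjusted p 0.00675), but the call was lost without HBG1 sgRNA rapamycin replicate 3 (adjusted p 0.0507). With the non-targeting sgRNA it went from 9.23 CPM to 12 and 13.4 CPM. ATG16L1 itself, the subunit that WIPI2 recruits, had a log2 fold change of -0.19 (95% interval -0.44 to 0.05).

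Of the other conjugation genes, 7 had log2 fold changes below 0, from -0.29 to -0.08. They included the E2-like enzyme ATG3, at 51.4, 51.5 and 46.4 CPM under DMSO and 37.8, 39.3 and 45.2 CPM under rapamycin. Its groups did not overlap, and its log2 fold change of -0.29 passed only with the block (adjusted p 0.075 without it and 0.0273 with it). The non-targeting libraries also went down, from 48.6 CPM to 39.9 and 38.9 CPM. The conjugates ATG12 and ATG5 had log2 fold changes of -0.22 and -0.19, and ATG7, the E1-like enzyme, had 0.01. The ATG4 proteases, which trim ATG8 proteins, lay between -0.21 (ATG4C) and 0.15 (ATG4D).

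ATG10, the E2-like enzyme that joins ATG12 to ATG5, was singled out after its values were seen. It was at 706 to 1040 CPM over the 9 libraries, more than any other autophagy gene, while the next highest, SQSTM1, reached 276 CPM. ATG10 shares 374 exonic bases with RPS23, a ribosomal protein gene on the opposite strand, and RPS23 was at 721 to 1070 CPM. The ratio of ATG10 to RPS23 was 0.974 to 0.981 in all 9 libraries. The strand setting is not given in the sources used here, and whether reads of RPS23 were counted for ATG10 was not tested. The values of ATG10 are therefore not read as its own level, and its log2 fold change of 0.10 (adjusted p 0.661) matches that of RPS23 to 2 decimals (0.10, adjusted p 0.674).

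**Figure D3:**
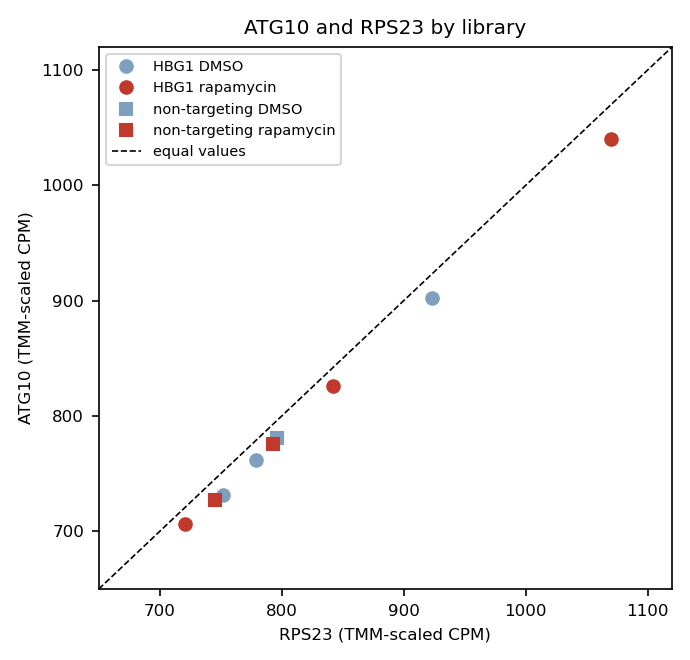
TMM-scaled CPM of ATG10 (vertical axis) against that of RPS23 (horizontal axis), both axes starting at 650, with 1 point per library and a dashed line of equal values. All 9 points lie just under the line, at ratios of 0.974 to 0.981.

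The ATG8 family had 2 of 4 tested members called, both higher, where 2.75% of all tested genes were called higher. Log2 fold changes of the 4 ran from 0.16 (MAP1LC3B) to 0.64 (GABARAPL1), a difference that was not tested. The 95% intervals of the 2 called members overlapped, at 0.34 to 0.93 for GABARAPL1 and 0.22 to 0.58 for GABARAP. GABARAPL1 (ENSG00000139112, chromosome 12, 10212458 to 10223130) was at 10.9, 9.67 and 10.9 CPM under DMSO and 13.5, 17.5 and 17.7 CPM under rapamycin. Its log2 fold change was 0.64 (SE 0.14 and adjusted p 0.0111), and rapamycin replicate 1 was the lowest of its group. The call was lost without HBG1 sgRNA rapamycin replicate 3 or DMSO replicate 2, with adjusted p up to 0.0669. The non-targeting libraries went from 11.8 CPM to 14.3 and 15.4 CPM.

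GABARAP (ENSG00000170296, chromosome 17, 7240014 to 7242770) was at 56.9, 59.7 and 50.9 CPM under DMSO and 77.3, 71.1 and 72.9 CPM under rapamycin, with a log2 fold change of 0.40 (SE 0.08 and adjusted p 0.00908). The call was lost without HBG1 sgRNA DMSO replicate 3 (adjusted p 0.0564). GABARAP shares 30.5% of its exonic length with AC120057.2 on the same strand and 25.2% with AC120057.3 on the other. AC120057.2 went from 83.0 ± 7.07 to 98.5 ± 4.53 CPM (SD, n = 3 each), a difference of 15.5 CPM (adjusted p 0.0821) beside the 17.9 CPM of GABARAP. AC120057.3 was itself called higher, from 28.2 ± 1.54 to 38.2 ± 1.22 CPM (log2 fold change 0.44, adjusted p 0.0127), so the rise cannot be assigned to GABARAP alone. In the non-targeting libraries GABARAP went from 55.8 CPM to 66.8 and 71.4 CPM.

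GABARAPL2 was at 41.7, 41.4 and 39.4 CPM under DMSO and 50.6, 44.0 and 48.8 CPM under rapamycin, a log2 fold change of 0.23 (adjusted p 0.145, and 0.0454 with the block). MAP1LC3B, the LC3 protein most used as a marker of autophagosomes, was at 105, 105 and 94.6 CPM under DMSO and 117, 106 and 118 CPM under rapamycin. Its log2 fold change was 0.16 (95% interval -0.01 to 0.33, adjusted p 0.277), and it did not pass with the block either (adjusted p 0.0986). Its near-identical copy MAP1LC3B2, whose reads may be divided with it, stayed between 0.516 and 1.79 CPM. MAP1LC3A was at 0 to 9 counts per library. Whether the changes differ between family members was not tested.

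Of the 5 cargo receptors, which tie ubiquitin-marked cargo to ATG8 proteins, NBR1 and TAX1BP1 rose. NBR1 (ENSG00000188554, chromosome 17, 43170481 to 43211689) was at 72.4, 80.7 and 73.1 CPM under DMSO and 127, 118 and 126 CPM under rapamycin, with a log2 fold change of 0.71 (SE 0.08 and adjusted p 9.88e-05). The non-targeting libraries went from 79.8 CPM to 131 and 124 CPM, a log2 fold change of 0.68. TAX1BP1 (ENSG00000106052, chromosome 7, 27739331 to 27844564) was at 93.4, 85.4 and 91.3 CPM under DMSO and 114, 103 and 128 CPM under rapamycin. Its log2 fold change was 0.36 (SE 0.09 and adjusted p 0.0209). That call was the least firm of the 10, lost without HBG1 sgRNA DMSO replicate 2, DMSO replicate 3 or rapamycin replicate 3, with adjusted p up to 0.122.

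OPTN, a receptor for damaged mitochondria and bacteria, was at 13.0, 12.7 and 10.5 CPM under DMSO and 16.8, 15.1 and 14.8 CPM under rapamycin, a log2 fold change of 0.36 (adjusted p 0.112, and 0.0391 with the block). SQSTM1, also called p62 and itself degraded by autophagy, was named after its values were seen. It was at 274, 274 and 276 CPM under DMSO and 242, 252 and 251 CPM under rapamycin. These groups did not overlap, but the log2 fold change of -0.15 (SE 0.07 and adjusted p 0.203, and 0.0928 with the block) did not pass. In the non-targeting libraries SQSTM1 went from 275 CPM to 226 and 232 CPM. The remaining receptor CALCOCO2 and the SNARE STX17, which joins autophagosomes to lysosomes, had log2 fold changes of -0.10 and 0.04.

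Levels were compared between genes per kilobase of exonic length, leaving out ATG10. Under DMSO with the HBG1 sgRNA, SQSTM1 was highest, at 35.9 ± 0.13 CPM per kb, followed by GABARAP at 24.6 ± 2.0 and ATG9A at 23.5 ± 1.8 CPM per kb (SD, n = 3 each), and the last 2 differed by less than their SD. The lowest were ATG16L2 at 1.09 CPM per kb, WIPI1 at 1.38 and ZFYVE1 at 1.43. ULK1 was at 5.77 CPM per kb, below its partners ATG13 at 8.6 and RB1CC1 at 11. Under rapamycin ULK1 was at 9.98, ATG13 at 12.4 and RB1CC1 at 15.1 CPM per kb, so the order of the 3 was the same. SQSTM1, GABARAP, ATG9A and WIPI1 share 20.7%, 30.5%, 38.8% and 24.3% of their exonic length with another gene, so their places in this order are uncertain.

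**Figure D4:**
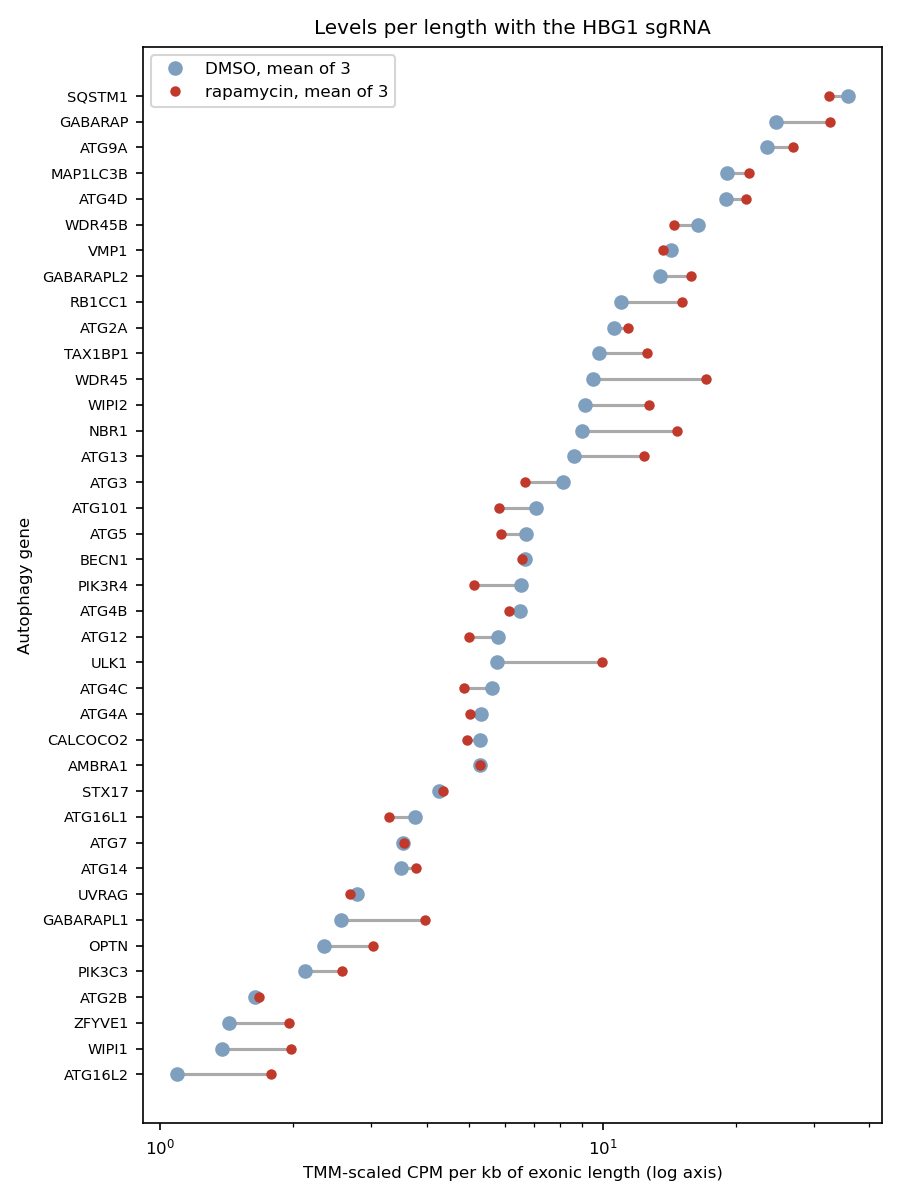
Mean TMM-scaled CPM per kilobase of exonic length (horizontal log axis) under DMSO and rapamycin with the HBG1 sgRNA, n = 3 each, for 39 tested autophagy genes ordered by the DMSO level, without ATG10. SQSTM1 is highest at 35.9 and ATG16L2 lowest at 1.09 under DMSO, and ULK1, WDR45 and NBR1 show wide gaps between the treatments.

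The non-targeting libraries share no library with the HBG1 sgRNA comparison. Their rapamycin change is given as fold changes only, and no test result is used, since the DMSO group is 1 library. All 10 genes called with the HBG1 sgRNA were higher in both non-targeting rapamycin libraries than in the non-targeting DMSO library, with log2 fold changes from 0.31 (GABARAP) to 0.73 (WDR45). The same was so for 92.5% of all 650 genes called higher with the HBG1 sgRNA, so this is the usual pattern of such genes. Over the 40 genes, 21 were higher in both non-targeting rapamycin libraries (52.5%) and 15 lower in both (37.5%), against 38.4% and 35.4% of all tested genes.

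No autophagy gene differed between guides past the threshold, where almost no gene did. The tests called 7 of all 23675 genes between guides under rapamycin, and 1 for a rapamycin change that differed by guide. A count of 0 of 40 is near those shares and does not show that the guides acted alike. No test result is given for the guides under DMSO, where 1 group is 1 library. Between the HBG1 and the non-targeting sgRNA under rapamycin, edgeR's quasi-likelihood test called 0 of the 40 genes, against 0.0296% of all tested genes (0.0169% higher and 0.0127% lower), and DESeq2 also called 0. At an unadjusted p under 0.05 there were 2 (WIPI1 and PIK3R4), or 5.0%, against 6.27% of all tested genes. Differences in log2 ran from -0.30 for PIK3R4 to 0.59 for WIPI1. In the interaction, the difference of the rapamycin change between guides, edgeR called 0 of 40, against 0.00422% of all, and DESeq2 called 0. At an unadjusted p under 0.05 there were 2 (ULK1 and WIPI1), against 2.86% of all tested genes. The interaction of ULK1 was 0.34 (95% interval 0.04 to 0.64, adjusted p 1.0) and that of WIPI1 was 1.03 (95% interval 0.12 to 1.93, adjusted p 1.0). The intervals of ATG13 (-0.29 to 0.29), WIPI2 (-0.28 to 0.29) and NBR1 (-0.25 to 0.33) were narrower. The interaction assumes that the single non-targeting DMSO library varies like the other groups.

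A further 89 genes around the pathway, of which 86 were tested, were followed in the same comparison. They are upstream kinases, transcription factors, PI3-kinase modulators, phagophore membrane proteins, organelle receptors and lysosome fusion proteins. These lists were likewise chosen with earlier results of these data known, so their shares are descriptions. Of the 86, 9 rose (10.5%, against 2.75% of all tested genes) and 3 fell, a share near the 4.05% of all tested genes, and their median log2 fold change was 0.04, against 0.02. With the replicate block 12 were called higher and 6 lower, where 7.43% and 9.62% of all tested genes were. All 9 that rose were higher in both non-targeting rapamycin libraries, as were 92.5% of all 650 genes called higher with the HBG1 sgRNA.

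None of the 15 tested kinases and regulators around mTORC1 and AMPK was called, where 6.8% of all tested genes were. For so few genes a count of 0 is near that share. Their log2 fold changes ran from -0.31 to 0.26. With the block 1 of them was called lower and 1 higher, where 9.62% and 7.43% of all tested genes were. RPTOR, the mTORC1 subunit that binds substrates, was lower (-0.31, adjusted p 0.0743 without the block and 0.00506 with it). STK11, the kinase that activates AMPK, was higher (0.26, adjusted p 0.112 without it and 0.00601 with it). Of the 7 transcription factors, 2 were called, both higher (28.6%, against 2.75% of all tested genes). They were FOXO4 and FOXO3, which activate autophagy genes and are restrained by AKT. Their log2 fold changes were 0.61 (SE 0.10 and adjusted p 0.00199) and 0.42 (SE 0.09 and adjusted p 0.00901). FOXO1, at 0.39 to 1.34 CPM, was not called (0.17, adjusted p 0.899), nor was ZKSCAN3 (0.05, adjusted p 0.873). FOXO4 was at 16.3, 16.9 and 16.6 CPM under DMSO and 25.7, 26.1 and 24.3 CPM under rapamycin. FOXO3 lost its call without HBG1 sgRNA DMSO replicate 2 (adjusted p 0.0594). RNA of TFEB was low, at 1.09 to 3.15 CPM, with a log2 fold change of -0.45 (adjusted p 0.464) that was not called, and in the non-targeting libraries it was at 2.66 CPM under DMSO and at 1.11 and 1.09 CPM with rapamycin. Its relatives TFE3 and MITF had log2 fold changes of 0.02 and -0.02.

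Organelle and cargo receptors held 7 of the 12 calls among these genes, 6 of 23 tested higher (26.1%, against 2.75% of all tested genes) and 1 lower. CALCOCO1, a receptor for endoplasmic reticulum and Golgi, was at 17.3, 15.2 and 13.6 CPM under DMSO and 25.1, 30.8 and 32.2 CPM under rapamycin, a log2 fold change of 0.93 (SE 0.12 and adjusted p 0.000337). PINK1, the kinase that marks damaged mitochondria, had a log2 fold change of 0.79 (SE 0.13 and adjusted p 0.00182). It shares 39.4% of its exonic length with the antisense gene PINK1-AS, whose mean level went from 37.1 ± 3.65 to 45.2 ± 4.47 CPM (SD, n = 3 each, adjusted p 0.116). NUFIP1, described as a receptor for ribosomes, fell by 0.58 on the log2 scale (SE 0.16 and adjusted p 0.0374), a call lost with upper-quartile scaling and on omission of any 1 of HBG1 sgRNA DMSO replicates 2 and 3 and rapamycin replicates 2 and 3 (adjusted p up to 0.172).

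The other 4 receptor genes that rose were named after their values were seen. They were HDAC6, which carries ubiquitin-marked aggregates (0.55, adjusted p 0.000313), NCOA4, the receptor for ferritin (0.40, adjusted p 0.00445), BNIP3L, the mitochondrial receptor used as red cells mature (0.40, adjusted p 0.0252), and FKBP8, a mitochondrial receptor of the FKBP family (0.30, adjusted p 0.0267). NCOA4 was at 269, 272 and 253 CPM under DMSO and 358, 318 and 371 CPM under rapamycin. BNIP3L lost its call without HBG1 sgRNA DMSO replicate 1, DMSO replicate 2, rapamycin replicate 3 or both libraries numbered 1 (adjusted p up to 0.139). FKBP8 lost its call without DMSO replicate 2 or 3 or rapamycin replicate 2 or 3 (adjusted p up to 0.144).

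In the remaining lists, TP53INP1, which binds ATG8 proteins, rose by 0.91 on the log2 scale (SE 0.21 and adjusted p 0.0139), a call lost without HBG1 sgRNA rapamycin replicate 3 (adjusted p 0.0901). TBC1D14, a regulator of recycling endosomes that supply membrane, fell by 0.33 on the log2 scale (adjusted p 0.0187). It was lost in 3 single-library omissions (DMSO replicates 2 and 3 and rapamycin replicate 3, adjusted p up to 0.109), and 41.1% of its exonic length is shared with the antisense gene AC097382.2, which also fell (log2 fold change -0.30, adjusted p 0.0259). RAB7A, the small GTPase of late endosomes and lysosomes, fell from 128, 137 and 129 CPM to 107, 97.3 and 105 CPM, a log2 fold change of -0.35 (SE 0.07 and adjusted p 0.00893). Its call was lost without HBG1 sgRNA DMSO replicate 2 (adjusted p 0.0612). None of the other 17 fusion genes was called without the block, where 6.8% of all tested genes were. With it VPS39, a subunit of the HOPS tethering complex, was called higher (log2 fold change 0.26, adjusted p 0.114 without the block and 0.0231 with it). The block also added BCL2L1 as higher and MCL1 and BNIP3 as lower, with log2 fold changes of 0.19, -0.21 and -0.29.

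**Figure D5:**
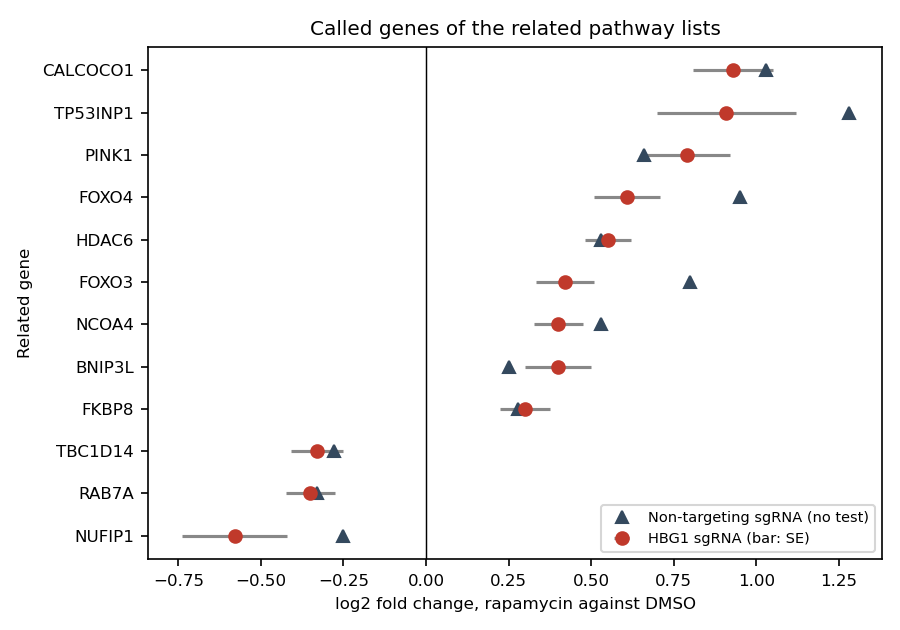
Log2 fold change of rapamycin against DMSO (horizontal axis) for the 12 called genes of the related lists. Circles with SE bars are the HBG1 sgRNA, and triangles are the non-targeting sgRNA, shown as fold changes only. Each triangle lies on the same side of 0 as its circle, the circles run from -0.58 (NUFIP1) to 0.93 (CALCOCO1), and the triangles from -0.33 (RAB7A) to 1.28 (TP53INP1).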

How the data were processed

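The data, as the authors deposited them, are raw counts for Ensembl genes in 9 libraries, held in 1 table. The submitters' processing notes name STAR 2.7.3a, featureCounts, Subread 2.0.0, R 4.1.2, limma 3.34.9, edgeR 3.24.0 and GRCh38, without roles. The annotation, strand setting and treatment of reads at several places are not given in the sources used here. Libraries were made from poly-T selected RNA, per the labels' protocols. Of 58347 IDs, 99.47% matched GENCODE 29, which gave symbols, positions, exonic lengths and overlaps.

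From these counts edgeR 4.0.16 (R 4.3.3) gave all main results: filterByExpr by group (minimum count 10), TMM scaling, and 1 quasi-likelihood fit over all 9 libraries with 1 mean per group, tested on simulated data first. Standard errors are the log2 fold change over the square root of F, and intervals are 95%. Groups and replicate numbers came from the titles. Deviations of same-numbered HBG1 sgRNA libraries correlated at 0.553, 0.278 and 0.231 over 11498 genes, all above the limit of 0.1. Same-numbered libraries were therefore used as pairs in the block fits. Rapamycin replicate 2 also correlated with DMSO replicate 3 (0.258), and rapamycin replicate 3 with DMSO replicate 2 (0.194). With replicate 1 apart from the others in both groups, these values cannot settle the pairing of replicates 2 and 3. Libraries of a group differed by a chi-square of 4.74 to 18.6 per gene, so none was a repeat. With the HBG1 sgRNA, replicate 1 stood apart, at 16.5 to 18.6 from the others of its group, against 4.74 and 7.91 between replicates 2 and 3. The members and lists were chosen with earlier results of these data known. Among the 42 genes, per-library values are given for those called in any test or only with the block, the ULK1 complex and the ATG8 family, and not called ones at an absolute log2 fold change of at least 0.3 are named. For each related list, the 3 called genes with the largest change are named. Alternatives were DESeq2 1.42.0, other scalings, no filter, omission of each library, replicate blocks and an additive model.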

Additional observations from a re-analysis of the deposited data

How the results depend on the processing

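Of the 10 autophagy genes called higher, 6 (ULK1, ATG13, RB1CC1, WIPI2, WDR45 and NBR1) kept direction and call under all 19 alternatives each. The other 4 (ATG16L2, GABARAP, GABARAPL1 and TAX1BP1) lost it only in fits without 1 library. The count called higher ran from 7 to 11 over the fits that left out 1 library, with 7 without HBG1 sgRNA rapamycin replicate 3, and was 10 without both libraries numbered 1, a choice made after seeing the data. It was 8 without genes that share 10% or more of their exonic length with another gene, also chosen after seeing the data. That limit keeps genes with smaller overlaps, such as ATG10 (6.9%, with RPS23) and the called ATG16L2 (7.9%, with FCHSD2). The count of 8 therefore does not settle the part of shared reads. With the replicate block the count called higher was 15 on the 6 HBG1 sgRNA libraries, 14 within each guide and 10 over all 9 libraries. The count called lower, 0, was 0 in every fit that left out 1 library, 1 with DESeq2, without a filter and with the block over all 9 libraries, 2 with the block on 6 libraries or within each guide, and 3 in the additive model. Related genes called, 12, ran from 6 (without HBG1 sgRNA DMSO replicate 2) to 14 with 1 library left out, with 7 without HBG1 sgRNA rapamycin replicate 3, and was 21 in the additive model. The counts of 0 between guides and in the interaction were 0 under every alternative that gave a value. The median log2 fold change of autophagy genes, 0.10, was 0.14 with upper-quartile scaling, 0.12 with library size only and 0.06 in the additive model, and ran from 0.06 to 0.11 with 1 library left out. With the non-targeting sgRNA the median, 0.11, ran from 0.03 to 0.11 with 1 library left out. It was 0.14 with upper-quartile scaling and 0.12 with library size only. The cause of these shifts was not tested. The smallest rise called among the autophagy genes was 1.28-fold, and the 2 genes under the filter, ULK2 and MAP1LC3A, could not be tested at this depth.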
